A study of Mus musculus with 20 samples.

Results

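Oxidative phosphorylation is carried out by 5 protein complexes of the inner mitochondrial membrane, and the genes of their subunits were followed here in CD8+ T cells taken from tumours. Members were chosen by symbol: the nuclear genes beginning Nduf, Sdh, Uqcr, Cox and Atp5 that name subunits of complexes I to V, and the mitochondrial genes ND1 to ND6, ND4L, COX1 to COX3, ATP6, ATP8 and CYTB. In all, 110 of the 45777 gene symbols matched, and 100 of these reached 1 FPKM in at least 5 libraries, as did 11794 symbols over the whole table. FPKM is a fragment count scaled by gene length and by library size. The 100 comprised 36 members of complex I, 4 of complex II, 8 of complex III, 15 of complex IV, 17 of complex V, 7 nuclear copies and pseudogenes, and the 13 mitochondrially encoded genes. Ndufa4, once assigned to complex I, was counted with complex IV, and Cox7a2l, a supercomplex factor, was counted there by its symbol.

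The hosts were hPD-1/hPD-L1/h4-1BB mice, a C57BL/6 strain humanised at these 3 genes, and the tumours grew from MC38 colon carcinoma cells with forced expression of human PD-L1. Mice were randomised at a mean tumour volume of 150 to 200 mm3, and CD8+ tumour-infiltrating T cells were sorted on day 4 after treatment. The 20 libraries formed 4 groups of 5: Control, Pembrolizumab (an antibody blocking PD-1), ABL503 (a bispecific antibody binding PD-L1 and 4-1BB) and the Combination of both. The humanised genotype and the tumour line were shared by all 4 groups, Control included, and what the Control mice were given is not stated in the labels, nor are the animals' ages.

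Complexes I and II pass electrons from NADH and succinate to ubiquinone, complex III passes them on to cytochrome c, and complex IV reduces oxygen. The proton gradient built by complexes I, III and IV drives ATP synthesis by complex V. Complex II is encoded wholly in the nucleus, while each of the others combines nuclear subunits with subunits translated inside the mitochondrion, so both genomes have to supply parts. In CD8+ T cells, mitochondrial respiration is known for its part in memory and persistence, and its loss for T-cell exhaustion in tumours.

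Column sums of the table lay between 575918 and 654333, read depth is unknown, and the lowest correlation between any pair of libraries was 0.94 over the tested genes. Whether each library stands for its own mouse is not stated, and the p-values therefore reflect only the spread among these samples. Summed over 8 T-cell markers, the libraries held 4906 to 8035 FPKM. Markers of other cells were lower but present: the 9 genes of dendritic cells and MHC class II ranged in sum from 39.2 to 68.0 FPKM in the Combination, which did not overlap the 140 to 454 of Control, from 44.8 to 159.7 after Pembrolizumab, and from 113 to 287 after ABL503. In that list Cd74 and H2-Ab1 carried most of the sum, and 2 of the 9 genes averaged under 1 FPKM. Clec9a, a defining gene of cross-presenting dendritic cells, averaged only 0.105 FPKM in Control. It was at 0 in all libraries of the 3 treated groups. Not all 9 genes were lower in the Combination. Xcr1 averaged 2.52 FPKM in Control and 3.69 in the Combination, Zbtb46 3.31 and 6.33, and Itgax 2.42 and 2.31. Sums of other lists shifted in the Combination too. The 6 tumour epithelium markers summed to 3.53 to 7.74 FPKM against 7.94 to 12.9 in Control, without overlap. Epcam and Cdh1 carried most of this sum. They averaged 4.53 and 4.297 FPKM in Control and 1.89 and 2.317 in the Combination, each with overlap. Krt18 went the other way, from 0.924 to 1.06. Krt8 averaged 0.197 and 0.0167, Cldn7 0.101 and 0.0218, and Krt19 was at 0 in both groups. Whether RNA of tumour cells was lower was not tested. The 6 CD4 and regulatory T-cell markers summed to 239 to 275 (median 250.3) against 143 to 278 (median 211). Ctla4 carried most of that sum, averaging 180 FPKM in Control and 215 in the Combination, and Il2ra averaged 16.1 and 31.0. Means of the remaining genes were lower in the Combination: Cd4 0.398 and 0.287, Foxp3 0.751 and 0.398, Ikzf2 3.11 and 2.77, Cd40lg 4.37 and 4.14. That sum therefore does not show more RNA of CD4 or regulatory T cells. The part of these marker lists in the results below was not tested separately. In bulk RNA of sorted cells, a smaller number of cells of a type and less RNA per cell cannot be told apart.

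Both genomes were strongly represented. The 13 mitochondrial genes made up 3.83% to 7.69% of the column sum in single libraries. The nuclear members of complexes I to V, with 5 untested members of complex IV, made up 2.81% to 4.25%. FPKM is a value per length but can carry biases of short transcripts, so levels of different genes compare only roughly. Cytochrome c oxidase subunit COX1 was highest of all at a mean of 8696 FPKM over 20 libraries, and ND3 was the lowest mitochondrial gene at 136. Among nuclear members the highest of each complex were Ndufb7 (482 FPKM) in complex I, the iron-sulfur subunit Sdhb (388) in complex II, the hinge protein gene Uqcrh (546) in complex III, Cox4i1 (1134) in complex IV and the c-ring gene Atp5g3 (935) in complex V. Sdha, the flavoprotein that oxidises succinate, was the lowest of complex II at 24.4 FPKM, although its protein stands beside Sdhb in equal number. In complex I the lowest of 36 was Ndufs1, its largest iron-sulfur subunit, at 22.7 FPKM. Transcripts of Sdha (2900 nt) and Ndufs1 (2661 nt) are long beside those of Ndufb7 (623 nt) and Uqcrh (547 nt). The part of length in these levels was not tested.

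Complex IV subunits with tissue-type isoforms were represented almost wholly by the ubiquitous form. Cox4i1 averaged 1134 FPKM against 0.108 for the hypoxia-associated lung form Cox4i2. Cox6a1 averaged 690.0 against 4.0 for the heart and muscle form Cox6a2, and Cox7a2 averaged 247 against 1.58 for the muscle form Cox7a1. Cox6b1 stood at 549.7 and the testis form Cox6b2 at 2.73. Cox8b, Cox7b2 and Ndufa4l2 were listed at 0 in all libraries, and Cox8c averaged 0.0483 FPKM. These last 4 and Cox4i2 did not reach the minimum and were not tested.

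Of the 12 nuclear copies, 7 were tested, with means from 1.04 FPKM for Atp5l-ps1 to 27.0 for Atp5l2-ps. Their values are uncertain, because reads of a copy and of its parent gene can be divided between them in counting, and no copy passed any test.

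**Figure D1:**
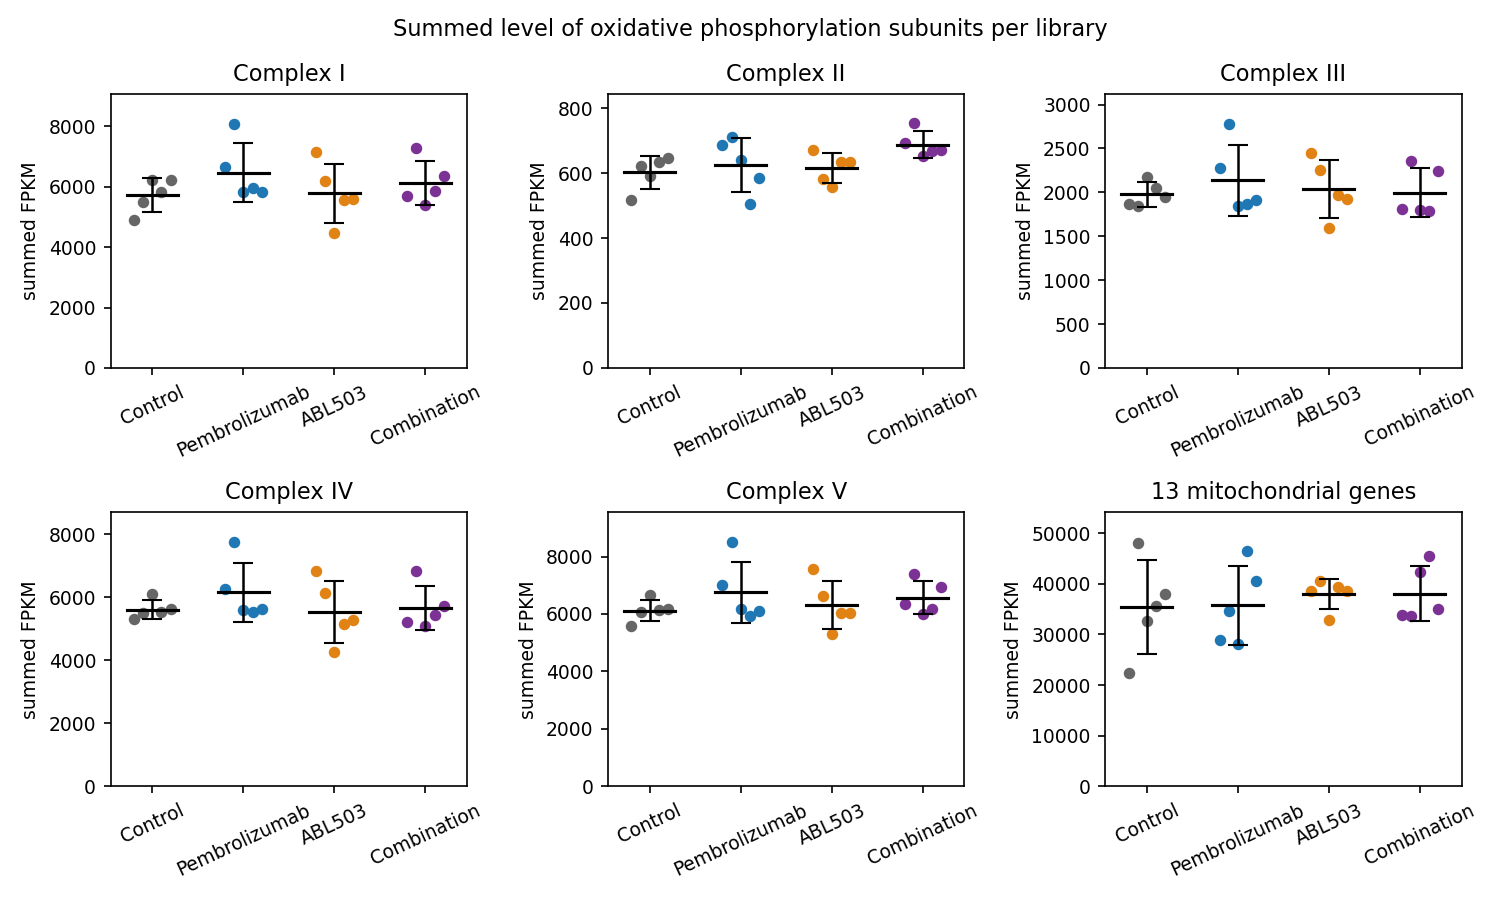
Summed FPKM of the members of each complex, with 5 untested members in complex IV, and of the mitochondrial genes, 1 point per library, with the group mean (bar) and SD (whiskers), n = 5 per group. Combination and Control overlap in every panel except complex II, where the lowest Combination library (652) lies above the highest Control library (646), and the mitochondrial sum spreads most in Control, from 22326 to 47969.

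Summed levels of whole complexes differed little between groups next to the spread within them. The Control mean of complex I was 5728 ± 559 FPKM (mean ± SD of 5 libraries here and below), and the treated means were 6469 ± 967 (Pembrolizumab), 5789 ± 978 (ABL503) and 6114 ± 729.7 (Combination). Complex II, the smallest, summed to 602 ± 51.7, 625 ± 83.1, 616 ± 46.0 and 688 ± 40.6 in the same order, and there alone all 5 Combination libraries lay above all 5 Control libraries. The mitochondrial sum was 38056.5 ± 5455 FPKM in the Combination, 37979 ± 2942 after ABL503, 35721 ± 7812 after Pembrolizumab and 35330.0 ± 9270.2 in Control. The plot of summed levels by complex shows these sums for each library.

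Tests were read from a limma fit over all 11794 genes on log2(FPKM + 1), and a member passed at a two-sided Benjamini-Hochberg adjusted p under 0.05. All changes below are differences on that scale, which understates the change of genes at low levels.

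The largest set of changes came in the Combination against Control. Of the 100 members, 10 passed, a share to be read beside the 12.6% of all tested genes that passed in that comparison. Among these 10, 9 were higher (6.34% of all genes were called higher) and 1 was lower (6.24%). At an unadjusted p under 0.05 the counts were 23 members and 28.1% of all genes, so the members passed about as often as other genes. The 9 comprised 5 subunits of complex I, 2 of complex II and 2 of complex V, and no member of complex III and no mitochondrial gene passed. Cyc1, the cytochrome c1 of complex III, is not among the members because of its symbol. It did pass in this comparison (limma, 0.39, adjusted p = 0.021) and is given below with the electron carriers. The median change was 0.05 over the 87 nuclear members, 0.09 over the 13 mitochondrial genes and -0.04 over all genes tested. Without Pembrolizumab 2, ABL503 1 and Combination 2, the 3 libraries of highest nuclear level, the nuclear median was -0.01, and without Control 1 the mitochondrial median was -0.05, so neither median held its sign. Changes above 0 were fitted for 63 of 100 members and 45.8% of all genes.

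**Figure D2:**
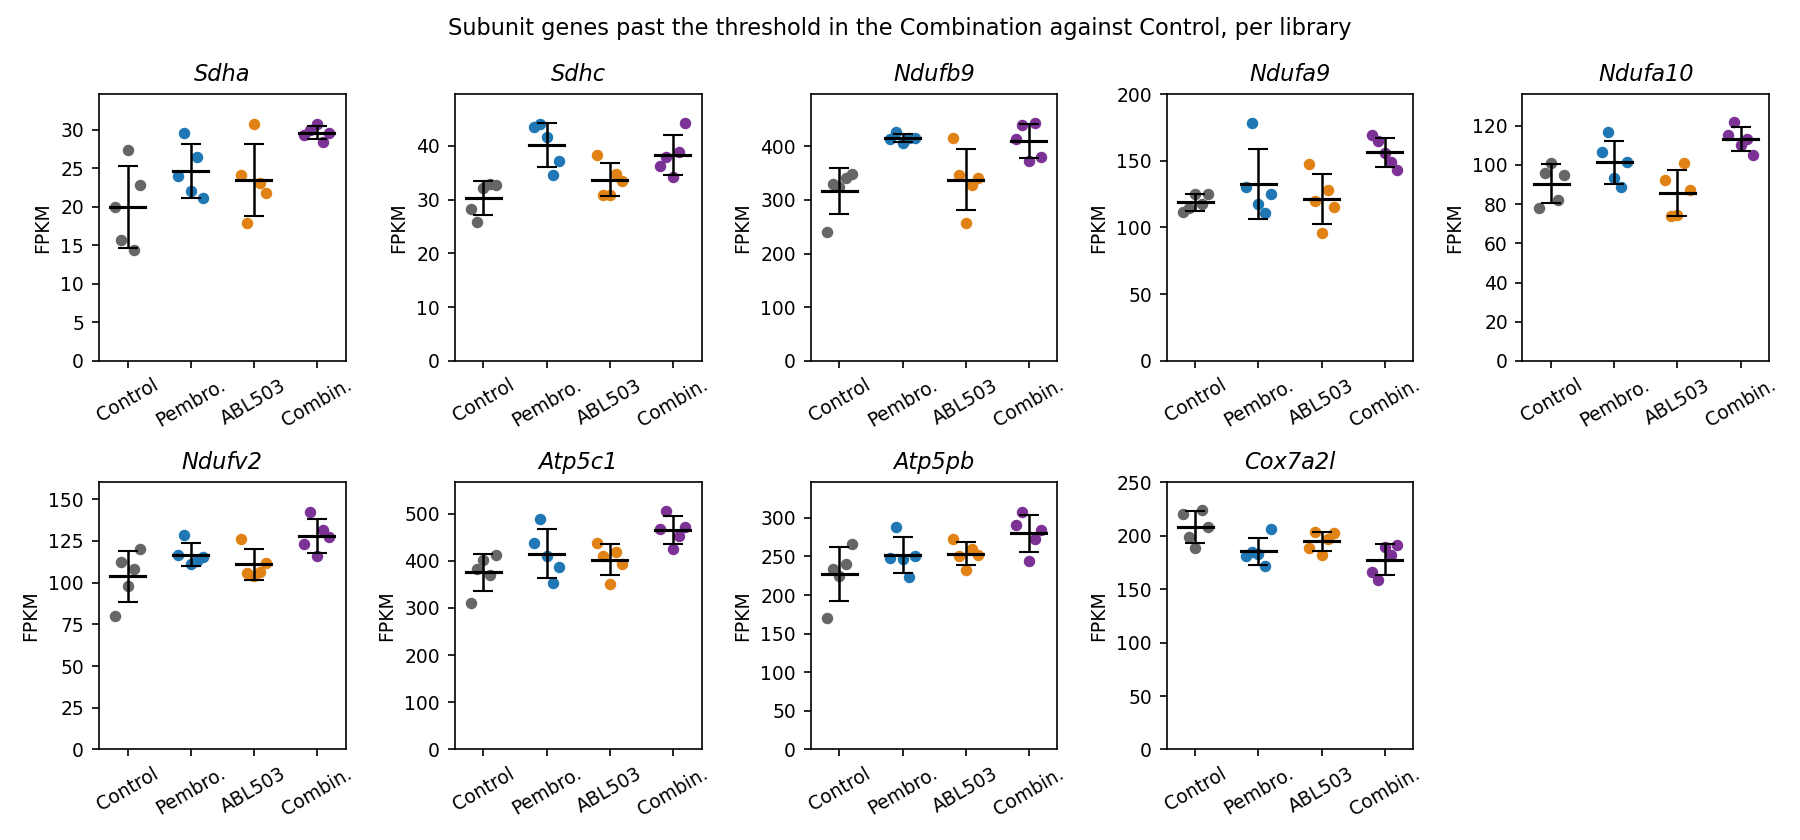
FPKM of 9 members that passed in the Combination against Control, 1 point per library, with mean (bar) and SD (whiskers), n = 5 per group; each vertical axis starts at 0. In 6 of the 8 genes shown that were higher, all 5 Combination libraries lie above all 5 Control libraries, and Cox7a2l is lower with overlap.

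Sdha (RefSeq GRCm38.p6 chr13:74322255-74350240) stood at 19.9, 15.6, 27.4, 14.3 and 22.8 FPKM in Control libraries 1 to 5, and at 29.2, 29.9, 30.7, 28.4 and 29.5 in the Combination. The 5 Combination libraries spanned only 28.45 to 30.7 FPKM, above every Control library, whereas Control spread widely. Sdha rose by 0.58 (SE 0.15, adjusted p = 0.016). Pembrolizumab libraries held 23.9, 29.6, 22.00, 26.5 and 21.2 and ABL503 libraries 24.1, 17.9, 30.7, 23.1 and 21.7 FPKM, and both overlapped Control. Sdhc (chr1:171129157-171150640), a membrane anchor of complex II that helps bind ubiquinone, read 28.2, 25.8, 32.2, 32.9 and 32.6 in Control and 36.3, 37.9, 34.2, 38.9 and 44.3 in the Combination. It rose by 0.33 (SE 0.10, adjusted p = 0.03), again without overlap. The other anchor, Sdhd, differed by 0.22 (SE 0.11, adjusted p = 0.18) with libraries that did not overlap, and Sdhb by 0.15 (SE 0.10, adjusted p = 0.34); neither passed. All 4 complex II genes thus had a fitted change above 0, with a median of 0.27.

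Within complex I, 5 of 36 members passed, all higher, and 4 of them are described. Ndufv2 (chr17:66078795-66101559), a core subunit of the NADH-oxidising arm, went from 104 ± 15.4 to 128 ± 9.97 FPKM, with overlap between the groups, and rose by 0.31 (SE 0.09, adjusted p = 0.034). The other three are accessory subunits. Ndufa9 (chr6:126821863-126849144), at the junction of the arms of complex I, read 112, 114, 125, 118 and 125 in Control and 169, 165, 156, 149 and 143 in the Combination and rose by 0.39 (SE 0.11, adjusted p = 0.029). Ndufb9 (chr15:58933801-58939516), of the membrane arm, read 240.5, 329.6, 325, 341 and 347 and 414, 439, 373, 443 and 379.9, with Control 1 far below its group, and rose by 0.38 (SE 0.11, adjusted p = 0.026). Ndufa10 (chr1:92439486-92473825) read 78.01, 95.6, 101, 81.98 and 95.1 and 115, 122, 110.3, 113 and 105 and rose by 0.32 (SE 0.10, adjusted p = 0.035). In these last 3 genes no Combination library fell within the Control range. Split by role, the 7 nuclear core subunits all had a change above 0 with a median of 0.17, and the 29 accessory subunits had 18 above 0 with a median of 0.05; this split was made with values known and no test was applied to it.

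In complex V, 2 of 17 members passed. Atp5c1 (chr2:10056030-10080510), the gamma subunit that turns inside the catalytic head, stood at 311, 383, 402, 369.9 and 411 FPKM in Control and 467, 506, 424, 453 and 472 in the Combination. The groups did not overlap, and Atp5c1 rose by 0.31 (SE 0.09, adjusted p = 0.031). Atp5pb (chr3:105942698-105959263), the b subunit of the peripheral stalk, went from 227 ± 35.02 to 280.0 ± 23.7 with overlap and rose by 0.31 (SE 0.10, adjusted p = 0.043). Of the catalytic pair, Atp5b of the beta subunit differed by 0.27 (SE 0.12, adjusted p = 0.15) and did not pass.

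One member fell. Cox7a2l (chr17:83501917-83514333), counted with complex IV by its symbol, read 220.3, 199, 189, 224 and 209 FPKM in Control and 166, 158, 189, 182 and 192 in the Combination, where 3 of 5 libraries lay below the Control range. It fell by 0.23 (SE 0.07, adjusted p = 0.045). The call did not hold widely: 13 of 20 fits that left out 1 library and 9 of 15 other alternatives did not call it, with an adjusted p of up to 0.14. Ndufa4, another late-joining subunit of complex IV, stood at 449, 470.0, 526, 507 and 451 in Control and 371, 458, 361, 323 and 320.1 in the Combination. Only Combination 2 reached the Control range, and the difference of -0.40 (SE 0.15, adjusted p = 0.074) did not pass. The muscle-type Cox6a2, at 4.96, 1.14, 14.1, 6.94 and 7.71 in Control and 1.87, 0, 1.04, 1.05 and 1.57 in the Combination, differed by -1.75 (SE 0.59, adjusted p = 0.054), with Control 2 inside the Combination range. Cox5a, a matrix-side subunit, differed upward by 0.31 (SE 0.11, adjusted p = 0.064). Among the complex III members, which do not include Cyc1, the nearest to passing was Uqcrc2, a core protein of the matrix side. It stood at 82.9, 78.1, 90.1, 77.3 and 79.99 FPKM in Control and 107, 116, 90.3, 104 and 115 in the Combination. Its groups met without overlapping at 90.1 and 90.3, and it differed by 0.38 (SE 0.13, adjusted p = 0.064).

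Counted over the 80 nuclear members of complexes I to V, 9 had Combination libraries wholly above Control and 0 wholly below, beside 4.42% and 4.43% of all genes tested. They included Sdha, Sdhc, Sdhd, Ndufa9, Ndufb9, Ndufa10, Atp5c1 and Uqcrc2. The count of 10 called members varied with single libraries. It was 2 without Control 1, 6 without Control 4, 3 without Combination 1 or without Combination 2, and 4 without Combination 4. Calls over all genes in these fits are not given here, so a loss particular to the members is not shown. Sdha passed in all 20 fits that left out 1 library, and in the 15 other alternatives too, with an adjusted p of at most 0.047. The other 8 described members each lost the call in 4 to 13 of the 20 fits. The summed dendritic and MHC class II markers given above were lower in the Combination, though Xcr1 and Zbtb46 were not. When the summed level of other-cell markers entered the fit as a covariate, 1 member, Sdha, was called in place of 10. Calls over all genes went from 1484 to 174. In that fit the median change of the nuclear members was 0.21. As the marker level differs between the groups, the covariate and the group cannot be told apart in full.

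Pembrolizumab alone moved fewer members past the threshold. Against Control, 2 of 100 passed, both higher, while 5.55% of all genes passed. At an unadjusted p under 0.05 there were 14 members, beside 20.2% of all genes. Sdhc stood at 43.4, 44.00, 41.6, 34.5 and 37.2 FPKM in Pembrolizumab, above every Control library, and rose by 0.39 (SE 0.10, adjusted p = 0.021). Ndufb9 stood at 414, 427, 407, 415 and 415, also above every Control library and with a narrow spread, and rose by 0.40 (SE 0.11, adjusted p = 0.034). Ndufb6, of the same membrane arm, was the third gene without overlap and differed by 0.29 (SE 0.13, adjusted p = 0.22). For higher values without overlap, 3 of 80 members compare with 2.71% of all genes.

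Below the threshold, members of complexes I to V lay mostly on one side. The fitted change was above 0 for 68 of 80, including 31 of 36 in complex I and 15 of 17 in complex V, beside 45.5% of all genes tested. The nuclear median was 0.15 and that of all genes -0.03. Complex I members next in order of p were Ndufc2 (0.38, adjusted p = 0.058), Ndufb3 (0.53, adjusted p = 0.065) and Ndufb5 (0.29, adjusted p = 0.092). In complex IV, Cox5a differed by 0.31 (SE 0.11, adjusted p = 0.1), and in complex V the c-ring genes Atp5g1 and Atp5g3 by 0.26 and 0.20 (adjusted p = 0.15 and 0.19). Uqcrfs1, the Rieske iron-sulfur protein of complex III, differed by 0.23 (SE 0.10, adjusted p = 0.21). Members vary together within groups, as shown further on, so these counts are not counts of independent genes. Pembrolizumab 2 held the highest nuclear sum of all 20 libraries at 27839.8 FPKM, against 19814 to 22931 in the other 4 of its group, and without it no member passed and the nuclear median was 0.05. The number called was also 0 without Control 1 or Pembrolizumab 1, 1 without Pembrolizumab 3, Pembrolizumab 4 or Pembrolizumab 5, where Sdhc held and Ndufb9 did not, 1 without Control 2, where neither held and another member passed, 5 without Control 5, and 4 without ABL503 1 or ABL503 3. Calls over all genes in the fits without 1 library are not given here, so these counts show nothing particular to the members. With adjustment for other-cell markers, 0 members passed and the nuclear median was 0.23.

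ABL503 alone left the nuclear members near Control. None of the 100 passed by limma's adjusted p, 1 had an unadjusted p under 0.05 (11.0% of all genes), and 0.619% of all genes passed. The nuclear median was 0.02, and it was -0.01 without Control 1. Over all fits that left out 1 library it ran from -0.08 (without ABL503 1) to 0.10 (without ABL503 3). Cox6b2, the low-level testis-type isoform, had the smallest p; its ABL503 libraries held 6.28, 2.56, 2.44, 2.52 and 3.52 FPKM against 2.22, 2.34, 1.42, 0.991 and 0.865 in Control. Cox6b2 was the 1 member wholly above Control, as were 1.70% of all genes, and the difference was 0.78 (SE 0.34, adjusted p = 0.4). Within complex I, Ndufb10 and Ndufa13 had the smallest p, at -0.22 and -0.34 (adjusted p = 0.49 and 0.57). In complex V, Atp5pb differed by 0.17 (SE 0.10, adjusted p = 0.55). Within the group ABL503 1 held 24662 FPKM of summed nuclear members and ABL503 3 held 16162, the lowest of all libraries, so the group spread widely on both sides of Control.

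All 3 of these comparisons use the same Control libraries and are not independent. For Sdha the changes were 0.31 (Pembrolizumab), 0.24 (ABL503) and 0.58 (Combination). For Sdhc they were 0.39, 0.15 and 0.33, and for Cox7a2l -0.17, -0.09 and -0.23. The values of Sdhc and Ndufb9 in Pembrolizumab were about as high as in the Combination, while Ndufa9, Ndufa10 and Atp5c1 had their highest group mean in the Combination.

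**Figure D3:**
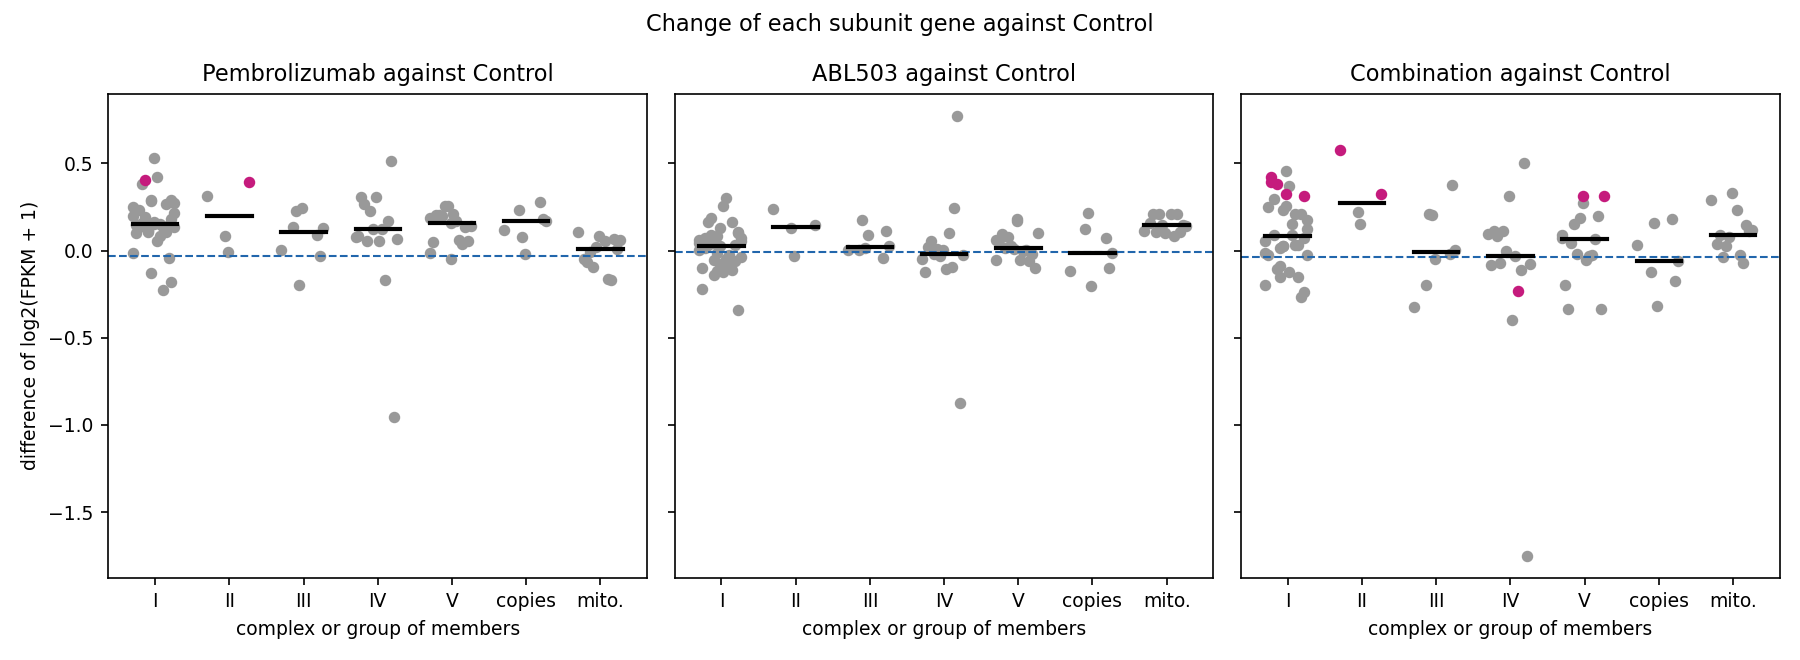
Fitted change of each tested member against Control (difference of log2(FPKM + 1)), by complex, with nuclear copies and mitochondrial genes apart; coloured points passed the adjusted threshold, bars are medians and the dashed line is the median of all genes tested. Pembrolizumab shows 2 coloured points, ABL503 0 and the Combination 10, and most points of complexes I to V lie above the dashed line in Pembrolizumab.

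Direct comparisons of the treated groups added 1 call. In the Combination against ABL503, Ndufa10 rose by 0.40 (SE 0.10, adjusted p = 0.024); its ABL503 libraries read 92.1, 74.02, 74.3, 101 and 87.2 FPKM, all below the Combination. That was 1 of 100 members, beside 4.53% of all genes; at an unadjusted p under 0.05 it was 13 members and 20.4% of all genes. Ndufs4 and Ndufa9 of complex I followed with 0.35 and 0.37 (adjusted p = 0.057 and 0.064). The count varied with single libraries. It was 6 without ABL503 1, 2 without Control 2, Pembrolizumab 2 or Combination 3, and 0 without ABL503 2, ABL503 3 or Combination 2. For these fits too, calls over all genes are not given here.

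Between ABL503 and Pembrolizumab no member passed (limma, 10 had an unadjusted p under 0.05 beside 13.5% of all genes, and 1.28% of all genes passed). The nuclear median was -0.15, and 64 of 80 members of complexes I to V had a fitted change below 0, whereas 53.9% of all genes and 13 of 13 mitochondrial genes had one above 0. That median was -0.05 without ABL503 3 and likewise without Pembrolizumab 2, and -0.03 with the short-transcript covariate. Ndufb5 (-0.30, adjusted p = 0.15) was first by p. Between the Combination and Pembrolizumab no member passed either (limma, 7 had an unadjusted p under 0.05 beside 13.2% of all genes, and 0.161% of all genes passed). Here the core proteins of complex III stood highest, Uqcrc1 at 0.40 and Uqcrc2 at 0.40 (adjusted p = 0.18 and 0.19), and Ndufa4 lowest by p at -0.46 (adjusted p = 0.19). The interaction, which asks whether the Combination differs from the sum of both single treatments, gave 0 calls among members (limma, 3 had an unadjusted p under 0.05 beside 10.3% of all genes, and 0.203% of all genes passed). Its median over nuclear members was -0.11.

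The mitochondrial genes did not separate the groups. None of the 13 passed in any of the 7 comparisons, and none had an unadjusted p under 0.05. In all 6 comparisons of 2 groups the 95% confidence interval included 0 for 13 of 13 genes, with a median half-width of 0.35, so changes smaller than that were not detectable. In ABL503 against Control all 13 fitted changes were above 0, from 0.08 to 0.21, as were 48.6% of all genes. Their median was -0.01 without Control 1, the library with the lowest mitochondrial sum. The genes share 1 genome and are copied in long common transcripts, so 13 changes on one side are not 13 separate observations.

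COX1, the catalytic subunit of complex IV, read 5375, 11282, 7557, 8693 and 8758 FPKM in Control and 8068, 7931, 9960, 10808 and 7595 in the Combination. Control alone covered more than the range of the Combination. CYTB, the only mitochondrially encoded subunit of complex III, read 2355, 4876, 3401, 3692 and 3948 in Control and 4141, 4328, 3629, 4313 and 4214 in ABL503, where it differed by 0.21 (SE 0.16, adjusted p = 0.66). ABL503 libraries were closer to each other than Control libraries, with ABL503 3 the lowest of the 5. ND1 of complex I, which forms part of its ubiquinone channel, differed by 0.07, 0.11 and 0.15 in Pembrolizumab, ABL503 and the Combination against Control.

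Among the comparisons with Control, the largest mitochondrial differences were those of the complex V genes in the Combination. ATP8 stood at 1199, 2624, 1662, 1977 and 2092 FPKM in Control and 2074, 2096, 2566, 2764 and 2224 in the Combination and differed by 0.33 (SE 0.16, adjusted p = 0.19), with an interval of -0.01 to 0.68. ATP6 stood at 4693 ± 1251 and 5600 ± 775 and differed by 0.29 (SE 0.17, adjusted p = 0.27). Control 1 and Control 2 bracketed all Combination libraries but the highest in ATP8. The 2 values are not separate: the reading frames overlap by 43 bases, and reads falling there belong to both genes. The overlap is shown because it ties the values of this pair together, with the start codon of ATP6 and the stop codon of ATP8 in capitals, from the GENCODE M21 transcripts on GRCm38.
ATP8 and ATP6 overlap (chrM:7927-7969, plus strand): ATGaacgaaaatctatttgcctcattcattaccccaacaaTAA

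The remaining mitochondrial genes were nearer to Control. In complex I, ND2, ND3, ND4, ND4L and ND5 differed in the Combination by between -0.07 (ND3) and 0.09 (ND4), and COX2 and COX3 by 0.08 and 0.11. ND6 differed by 0.23 (SE 0.15, adjusted p = 0.31); it lies on the other strand from its neighbour ND5, with an overlap of 14 bases, and as the counting is not stated to use strand, its reads and those of antisense RNA cannot be told apart. ND3 was the only mitochondrial gene that did not follow the others: 108, 284, 56.6, 109 and 102 FPKM in Pembrolizumab included the highest and the lowest value of all 20 libraries.

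Between libraries of a group, members varied together within each genome more than between genomes. After group means were removed, the median correlation over 20 libraries was 0.90 among the 78 pairs of mitochondrial genes, 0.51 among the 3160 pairs of nuclear members and 0.05 between the genomes, beside 0.01 among pairs drawn as every 12th gene tested. These are descriptions: all points share the same libraries, and no depth is known for them. Among mitochondrial genes, 12 of 13 correlated above 0.8 with the mean of the others, and ND3 at 0.09 did not. In complexes III and IV the median member correlated at 0.86 and 0.84 with the mean of the other nuclear members, in complexes I and V at 0.80 and 0.79, and in complex II at 0.53.

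The members that were higher in the Combination were not those that followed the common nuclear axis most closely. Their median correlation with the other nuclear members was 0.56, against 0.80 over all 80. Sdha at 0.10 was nearly independent of it, as was Ndufs7, a core subunit of complex I, at 0.05. Cox7a2l, the member that fell, was the only one below 0, at -0.13. At the other end stood small subunits, with Atp5j2 of complex V at 0.98, Ndufb2 of complex I at 0.97 and Cox6b1 of complex IV at 0.95.

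**Figure D4:**
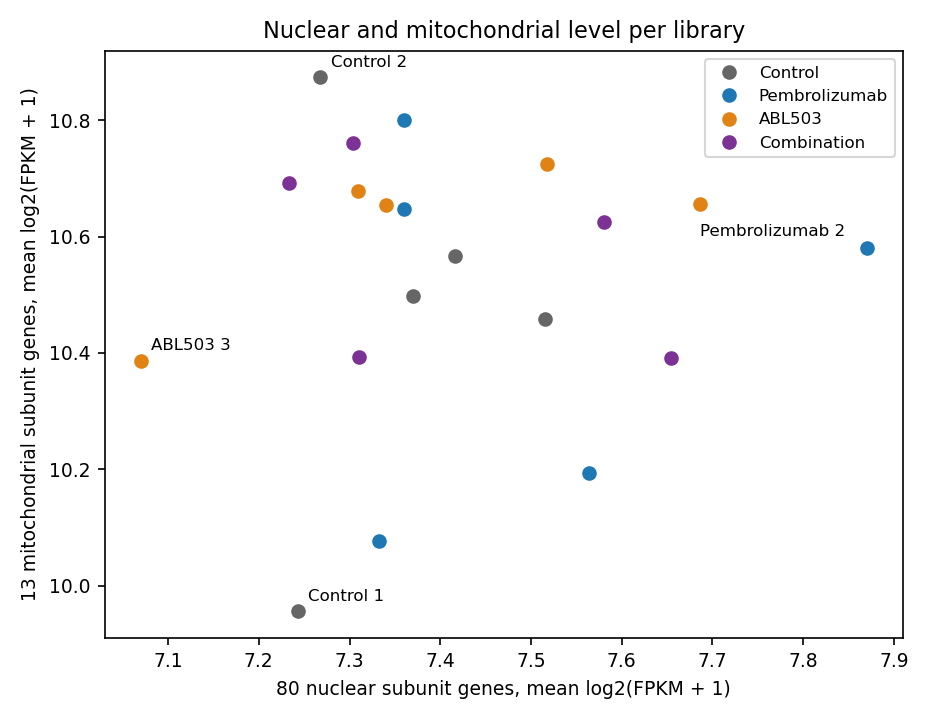
Mean log2(FPKM + 1) of the 80 nuclear members of complexes I to V against that of the 13 mitochondrial genes, 1 point per library, coloured by group; 4 libraries at the edges are named. Pembrolizumab 2 has the highest nuclear level (7.87) and ABL503 3 the lowest (7.07), Control 1 has the lowest mitochondrial level (9.96) and Control 2 the highest (10.87), and the 4 groups overlap on both axes.

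Transcript length moved with the changes in the Combination. Lengths were taken from 1 reference transcript per gene for 79 of 80 nuclear members. Which transcript the cells used is unknown, and the classes and correlations rest on this choice. Ndufb2, a small subunit, entered at 4371 nt, and Atp5g1 at 4715 nt. In the Combination against Control the median change was -0.03 for the 33 members of up to 700 nt, 0.15 for the 29 above that and up to 1500 nt and 0.25 for the 17 above 1500 nt. Of the 9 members called higher, 6 were above 1500 nt and 3 between the limits of 700 and 1500 nt, with a median of 1623 nt against 765 for all 79. Rank correlation of change with length was 0.47 over members and -0.16 over 9244 other coding genes. The same correlation was 0.56 in the Combination against Pembrolizumab and 0.51 in the Combination against ABL503, but 0.00 in Pembrolizumab and 0.08 in ABL503 against Control. The genes are not independent, and no p is given.

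**Figure D5:**
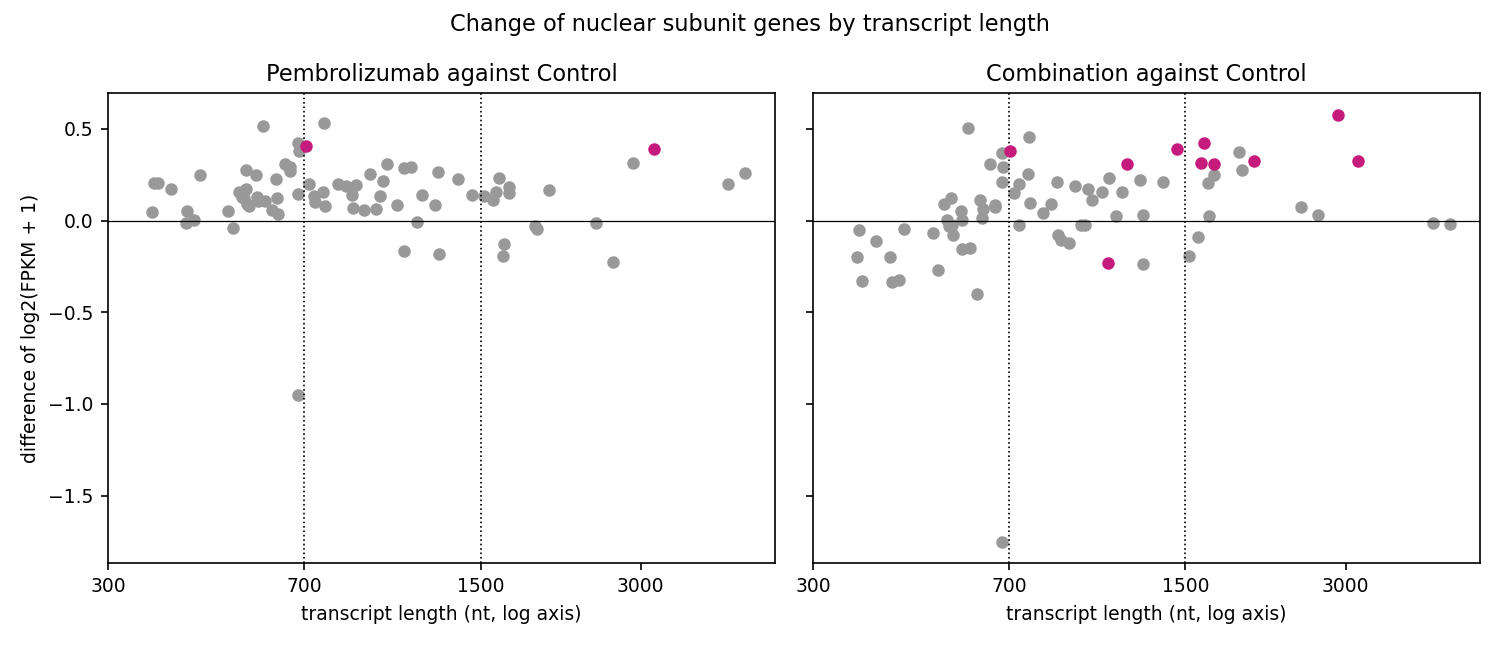
Fitted change against Control (difference of log2(FPKM + 1)) of 79 nuclear members by transcript length in nucleotides on a log axis; coloured points passed, and dotted lines mark 700 and 1500 nt. In the Combination, no member of up to 700 nt passed and 6 of 17 above 1500 nt were higher, while in Pembrolizumab changes show no slope with length (rank correlation 0.00).

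Libraries differed in how high short members stood against long ones. The mean log2 level of members up to 700 nt minus that of members above 1500 nt was lowest in the Combination, at 0.61 ± 0.20, beside 0.86 ± 0.09 in Control, 0.90 ± 0.17 after Pembrolizumab and 0.84 ± 0.23 after ABL503. For coding genes other than members, short minus longer genes stood at 1.68 ± 0.19, 1.78 ± 0.06, 1.86 ± 0.16 and 1.76 ± 0.24 in the same order. The core catalytic subunits of complex I are among the long genes (median 1623 nt), and the ubiquitous subunits of complex IV among the short ones (median 618 nt), so role and length cannot be told apart in these values. When the level of short against longer genes entered the fit as a covariate, 20 members passed in the Combination against Control, 19 higher and 1 lower, while calls over all genes went from 1484 to 2120. In that fit 8 members passed in the Combination against ABL503 and 5 in Pembrolizumab against Control, and the nuclear median was 0.18 in the Combination and 0.06 in Pembrolizumab.

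Genes that serve the complexes were read from 9 lists with 221 genes, 209 of them tested. The list of electron carriers, ubiquinone and cardiolipin synthesis and ADP/ATP exchange also held Mcub and Ndufab1. In this list 6 of 23 rose in the Combination against Control and 0 fell, beside 6.34% higher and 6.24% lower over all genes. Its median was 0.25, and that of all genes was -0.04. The lists were not refitted with the other-cell marker covariate, under which calls over all genes went from 1484 to 174. They included Cyc1, the cytochrome c1 of complex III, from 87.9 ± 8.21 to 116 ± 13.2 FPKM (0.39, adjusted p = 0.021), the ADP/ATP carrier Slc25a4 from 158 ± 19.4 to 199 ± 12.99 (0.34, adjusted p = 0.014), and Mcub, a subunit of the calcium uniporter (0.94, adjusted p = 0.016). The other 3 serve ubiquinone synthesis: Coq3 at 0.94 (adjusted p = 0.0038), Coq7 at 0.45 (adjusted p = 0.03) and Coq9 at 0.49 (adjusted p = 0.04). In Pembrolizumab 3 of 23 rose and 0 fell, beside 5.55% of all genes called in either direction. The 3 were Cycs, the cytochrome c gene (0.44, adjusted p = 0.026), Ndufab1 (0.39, adjusted p = 0.028) and Coq3 (0.73, adjusted p = 0.032). Ndufab1, the acyl carrier protein held by complex I, is not among the members because of its symbol. In ABL503 Mcub alone passed (1.07, adjusted p = 0.046), beside 0.619% of all genes.

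Counts of assembly factors called are to be read beside the share of all genes called. That share was 12.6% in the Combination, 5.55% in Pembrolizumab and 0.619% in ABL503. The lists are short, so counts of 0 or 1 are not results about them. In the Combination 1 of 17 complex I factors rose, Tmem126b, which is needed for the membrane arm (0.87, adjusted p = 0.0068). Of 9 factors for complexes II and III, Sdhaf1, which helps insert iron-sulfur clusters into Sdhb, fell from 97.2 ± 20.3 FPKM in Control to 60.9 ± 4.02 in the Combination, a change of -0.64 (adjusted p = 0.0014), and to 63.7 ± 7.35 in Pembrolizumab, a change of -0.59 (adjusted p = 0.0059). None of the 23 complex IV factors and none of the 4 complex V factors passed in the Combination, and in Pembrolizumab Coa4 of complex IV rose (0.89, adjusted p = 0.033). In the tricarboxylic acid cycle list, 1 of 20 passed in the Combination, Dlat of the pyruvate dehydrogenase complex (0.55, adjusted p = 0.014), and 0 of 20 in each single treatment.

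Of 25 tested genes that maintain and express mitochondrial DNA, 1 rose and 1 fell in the Combination, 1 rose and 2 fell in Pembrolizumab, and 1 rose in ABL503, beside 12.6%, 5.55% and 0.619% of all genes called. Tfam, which packages mitochondrial DNA and starts its transcription, fell from 21.2 ± 3.27 FPKM in Control to 14.5 ± 1.28 in Pembrolizumab (-0.51, adjusted p = 0.013) and 14.7 ± 1.82 in the Combination (-0.49, adjusted p = 0.009). Polg2, of the mitochondrial DNA polymerase, fell in Pembrolizumab (-0.74, adjusted p = 0.0048). Lrpprc, which stabilises mitochondrial mRNA, rose in Pembrolizumab (0.51, adjusted p = 0.035) and in ABL503 (0.61, adjusted p = 0.045). Hsd17b10, a part of mitochondrial RNase P, rose in the Combination (0.56, adjusted p = 0.0034). Of 78 mitochondrial ribosomal protein genes, 10 rose and 3 fell in the Combination, beside 12.6% of all genes called, 5 rose and 2 fell in Pembrolizumab, beside 5.55%, and 1 rose in ABL503, beside 0.619%. Taken over both directions, these counts are near those shares. By direction, the 10 higher and 3 lower in the Combination stand beside 6.34% and 6.24% of all genes. Fitted changes were above 0 for 54 of 78 in the Combination, 55 in Pembrolizumab and 55 in ABL503. Over all genes these shares were 45.8%, 45.5% and 48.6%. No test was applied to the list as a set. In the Combination Mrps15 had the smallest p (0.48, adjusted p = 0.0021), and of the 3 lower genes Mrps34 did (-0.35, adjusted p = 0.024). None of the 10 tested regulators of mitochondrial biogenesis passed against Control in any group.

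Promoter windows from RefSeq (GRCm38.p6, 250 bases before to 50 after the start) were found for 67 of the 80 nuclear members, and for 7 of the 10 called in the Combination. NRF1, ETS-family factors such as GABP, YY1 and the estrogen-related receptors are known regulators of such genes. On both strands, the NRF1 palindrome with any base at its 6th position, a form that includes the strict site, was found in 25.4% of member genes and in 5.19% of 27025 genes with a window; this form was added after the Sdha promoter had been seen. The strict NRF1 palindrome was found in 7.46% and 1.07%, the ETS core CCGGAAG in 25.4% and 9.93%, the YY1 motif AAGATGGC in 14.9% and 3.19%, the receptor motif TCAAGGTCA in 2.99% and 0.466%, and the TATA box letters TATAAA in 8.96% and 15.7%. Atp5c1 also held the looser NRF1 form, and Ndufa10 and Ndufv2 held none of these letters in their windows. The windows of 4 called members are printed to show how they differ, with matches in capitals: 3 of the looser NRF1 form in Sdha, AAGATGGC in Ndufa9, the same motif on the other strand in Atp5pb, and none in Cox7a2l. A match describes the letters only. All members searched had reached the FPKM minimum, whereas the 27025 genes were not limited in that way. Whether the members' shares differ from those of other expressed genes was not tested.
Sdha (chr13:74350191-74350490, minus strand): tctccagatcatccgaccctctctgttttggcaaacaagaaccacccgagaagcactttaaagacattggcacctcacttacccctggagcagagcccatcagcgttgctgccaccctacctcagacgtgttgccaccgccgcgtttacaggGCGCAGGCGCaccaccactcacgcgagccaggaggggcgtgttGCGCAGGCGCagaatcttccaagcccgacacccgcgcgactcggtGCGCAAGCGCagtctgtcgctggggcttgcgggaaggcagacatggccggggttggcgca
Ndufa9 (chr6:126849095-126849394, minus strand): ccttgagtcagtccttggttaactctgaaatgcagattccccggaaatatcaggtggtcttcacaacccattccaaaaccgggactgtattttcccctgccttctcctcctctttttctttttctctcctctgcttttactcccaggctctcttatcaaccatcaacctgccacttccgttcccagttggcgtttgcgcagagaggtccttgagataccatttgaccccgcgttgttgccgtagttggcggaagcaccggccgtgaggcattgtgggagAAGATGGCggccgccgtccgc
Atp5pb (chr3:105959214-105959513, minus strand): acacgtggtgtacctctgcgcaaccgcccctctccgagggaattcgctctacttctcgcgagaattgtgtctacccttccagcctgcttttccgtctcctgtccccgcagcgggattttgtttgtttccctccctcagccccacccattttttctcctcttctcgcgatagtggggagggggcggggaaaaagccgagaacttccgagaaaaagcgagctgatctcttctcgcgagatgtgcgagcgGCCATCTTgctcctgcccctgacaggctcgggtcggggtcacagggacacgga
Cox7a2l (chr17:83514284-83514583, minus strand): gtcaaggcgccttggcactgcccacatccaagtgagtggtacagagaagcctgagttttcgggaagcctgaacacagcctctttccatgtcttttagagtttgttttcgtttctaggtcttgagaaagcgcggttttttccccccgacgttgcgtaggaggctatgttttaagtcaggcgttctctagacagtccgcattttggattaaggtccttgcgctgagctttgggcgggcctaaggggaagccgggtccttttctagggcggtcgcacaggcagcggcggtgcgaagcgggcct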

How the data were processed

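RNA of sorted CD8+ T cells was made into libraries with SMART-Seq v4, per the labels. HISAT2 and StringTie on GRCm38 (mm10) were used, per the submitters' processing notes; versions and annotation release are not given in the sources used here. The values deposited by the authors are FPKM, inferred from the numbers, which are not whole and sum differently per library; no scaling between libraries is stated, and without counts the depth and its error are unknown. FPKM per length can carry biases of short transcripts and of overlapping or copied genes.

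limma 3.58.1 in R 4.3.3 fitted log2(FPKM + 1) for 11794 genes (minimum 1 FPKM, reached by 5 or more libraries), using group means, a spread common to the groups with 16 residual degrees of freedom, and an intensity trend. Two-sided p-values were adjusted by Benjamini-Hochberg over these genes within each of 7 comparisons. Python 3.11.15 and matplotlib 3.10.9 made the promoter search and plots. The steps were tested on simulated data. Members, gene lists and the length classes were chosen with earlier results of these data known. Named were the 13 mitochondrial genes, the members with the smallest p per complex and comparison, a panel of isoforms, the highest member of each complex, and the genes of smallest p in each list; other names were chosen after their values were seen. Values of 1 member are not reported here. Transcript lengths are from GENCODE M21 (1 transcript per gene, by APPRIS, then support level, then length). Positions and promoter sequences are from RefSeq on GRCm38.p6. Alternatives were pseudocounts of 0.1 and 0.01, no filter, 3 other scalings, weighted libraries, a replicate block, fits of the compared groups only, other thresholds and leaving out each library. Added after seeing the data were covariates for other-cell markers and for short transcripts, and leaving out sets of 2 and 3 libraries. Replicate numbers were checked for pairing: no comparison had same-numbered libraries all correlated above 0.1, so they were not treated as pairs.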

Additional observations from a re-analysis of the deposited data

Results flagged for a closer look

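Each group of 5 libraries was searched for 1 library far from the other 4, over the summed levels and the members named, 244 groups in all. By chance about 1 in 20 groups would show one, and 15 did. Pembrolizumab 2 stood apart in 4 of the 15: Atp5k, a small complex V subunit, at 156 FPKM against 40.0 to 65.7 in the others, Cox6b1 at 859 against 508 to 589, Ndufa9 at 178 against 111 to 130.4, and ND3 at 284 against 56.6 to 109. ABL503 3 stood apart in 3, all on the low side and mitochondrial: the summed mitochondrial level at 32916 FPKM against 38546 to 40541, COX2 at 3008 against 3635 to 3875, and CYTB at 3629 against 4141 to 4328. In ABL503 2 the muscle-type isoforms were high, Cox6a2 at 19.7 FPKM against 0 to 3.12 and Cox7a1 at 3.67 against 1.07 to 1.57. Cox7a1 was also high in Combination 5, at 4.81 FPKM, and Cox6b2 in ABL503 1, at 6.28. Control 1 was low in Ndufb9, at 240 FPKM, and Control 3 high in Cox8a, at 849. In the Combination, replicate 2 was high in Ndufb7, at 613 FPKM, and replicate 3 low in Ndufs4, at 63.0.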

How the results depend on the processing

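Counts of called members moved with the processing, while no named member changed sign against a call. Calls over all genes can move with the setting too and are mostly not given here. The moves below are therefore not shown to be particular to the members. In the Combination against Control the 10 calls became 2 with no filter on low values, 16 at an adjusted p under 0.1, 1 with a minimum absolute log2 change of 0.5, 1 with the other-cell marker covariate, 20 with the short-transcript covariate, 4 without Control 1 and ABL503 3, and 4 without the 3 libraries of highest nuclear level; leaving out 1 library gave 2 to 12. In Pembrolizumab against Control the 2 calls became 1, 5, 0, 0, 5, 1 and 0 under the same settings, 4 with quantile normalization, and 0 to 5 without 1 library. In the Combination against ABL503 the 1 call became 0 with no filter, 4 at an adjusted p under 0.1, 0 with the minimum change, 0 with the marker covariate, 8 with the short-transcript covariate, 3 without the 3 libraries, 2 with quantile normalization or a median shift per library, and 5 with array weights; leaving out 1 library gave 0 to 6. With no filter more genes are tested; other causes were not tested. The median of nuclear members in the Combination against Pembrolizumab (-0.10) was 0.11 with the short-transcript covariate, -0.04 with the marker covariate, and -0.09 to -0.11 under the other settings that keep every library. In ABL503 against Pembrolizumab it (-0.15) was -0.03 with the short-transcript covariate and -0.24 with the marker covariate. The medians of the mitochondrial genes in Pembrolizumab against Control (0.01) were -0.14 without Control 1, -0.08 with array weights, -0.05 with quantile normalization and -0.04 with equal sums over other genes, and that of nuclear members in the Combination against ABL503 (0.04) was -0.01 with equal sums, -0.04 without Control 1 and ABL503 3, 0.21 with the marker covariate and 0.14 with the short-transcript covariate. The interaction median of nuclear members (-0.11) was 0.06 with the short-transcript covariate and -0.05 with the marker covariate. Of the named members' values under the alternatives, 9243 kept their side of the threshold, 132 lost the call and 38 gained one. Changes of sign in values called in neither fit were not counted. With the replicate number as a block 8 members passed in the Combination against Control, 3 in Pembrolizumab against Control and 1 in the Combination against ABL503; same-numbered libraries correlated between -0.15 and 0.11, and no group pair had every library closest to its own number. Depth is unknown, so the precision of low isoforms such as Cox7a1 rests on the spread between libraries.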
